A study of Mus musculus with 12 samples.

Results

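The 10 genes described here are the oncostatin M gene Osm, the receptor genes Il6ra and Il6st, the kinase genes Jak1 and Jak2, the transcription factor gene Stat3, and the feedback inhibitor genes Socs3, Socs1, Cish and Socs2. They were taken by symbol from a table of 23420 gene rows. In all, 9 of the 10 passed the filter on low counts and were tested among 11806 genes, while Socs2 was too low to be tested. Macrophages had been sorted from nucleated bone marrow cells of 2 C57BL/6 mice, numbered 19 and 7. In each mouse, tibias that had been treated with mesenchymal stromal cells (MSC) were set against untreated femurs of the same animal, with 3 RNA sequencing libraries per bone and mouse and 12 libraries in all. The labels call the tibial cells MSC-educated macrophages. They give no genotype beyond the strain, no age, no sorting markers and no route or time of the MSC treatment. The series title speaks of leukemia bone marrow, but the labels do not say whether these animals carried leukemia. Treatment and bone cannot be told apart, because tibias alone were treated and femurs alone were left untreated. The 3 libraries of a bone are not stated to come from separate animals, so p-values over libraries rest on a spread that may be technical. Within a mouse and for the difference between the mice, that spread is the one between libraries. Over both mice it also holds any difference between the mice in the change from femur to tibia.

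Cytokines of the interleukin 6 family, among them interleukin 6 and oncostatin M, signal through gp130, the shared receptor subunit encoded by Il6st. Interleukin 6 first binds its receptor alpha chain, encoded by Il6ra, and gp130 then brings the Janus kinases JAK1 and JAK2 together. The kinases phosphorylate STAT3, which moves to the nucleus and turns on target genes. Socs3 is one of those targets. Its protein binds gp130 and the kinases and ends the signal, whereas SOCS1 mainly restrains interferon receptors, and CISH and SOCS2 are best known as feedback inhibitors of STAT5 signals from growth hormone and other cytokines. In macrophages SOCS3 limits the response to interleukin 6 and leaves that to interleukin 10 in place.

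Depth ran from 9773455 to 14869150 counts per library. Levels are given as CPM, counts scaled to a common library total, after scaling by the trimmed mean of M values (TMM). A count of 0 allowed a level of up to 0.404 to 0.617 CPM, depending on the library, and this limit covers counting error only. The macrophage genes Csf1r (955 CPM in tibia and 946 CPM in femur), Emr1 (291 CPM in tibia and 306 CPM in femur), Cd68 (273 CPM in tibia and 271 CPM in femur) and Itgam (1587 CPM in tibia and 1562 CPM in femur) were present in both bones. Of the 8 macrophage genes listed, Mertk, a receptor for the uptake of dead cells, was called higher, at 9.77 CPM in tibia and 4.78 CPM in femur (log2 fold change 1.01, edgeR adjusted p = 2.9e-05), and the lysozyme gene Lyz2 was called lower, at 13380 CPM in tibia and 14501 CPM in femur (-0.11, 0.00564). Transcripts of other marrow cells were abundant too. The 8 macrophage genes summed to 15671 to 16607 CPM in mouse 19 and 16819 to 19388 CPM in mouse 7. Neutrophil genes, 8 of the 9 listed, summed to 23652 to 28807 CPM in mouse 19 and 15886 to 17512 CPM in mouse 7. Sums over different genes do not give shares of cells, and which cells gave the level of each member was not tested. A call means an adjusted p under 0.05 in edgeR's quasi-likelihood test with Benjamini-Hochberg adjustment over the 11806 genes, and 7.2% of all genes were called over both mice, 3.51% higher and 3.69% lower in tibia. Over both mice 1 member was called higher in treated tibia (Socs3) and 1 lower (Il6st), out of 9. In bulk samples such as these, fewer cells of a type and less RNA per cell cannot be told apart.

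Socs3 and Il6st, the feedback inhibitor and the receptor subunit that it binds, lie on different chromosomes. Their RefSeq promoter windows on build GRCm38.p6, 250 bases before and 50 bases from the annotated start, are shown because these are the members called over both mice. Capitals mark the STAT-type palindrome TTCNNNGAA, which reads the same on both strands. The Socs3 window spans chr11:117969317-117969616 on the minus strand and the Il6st window chr13:112463820-112464119 on the plus strand.
Socs3: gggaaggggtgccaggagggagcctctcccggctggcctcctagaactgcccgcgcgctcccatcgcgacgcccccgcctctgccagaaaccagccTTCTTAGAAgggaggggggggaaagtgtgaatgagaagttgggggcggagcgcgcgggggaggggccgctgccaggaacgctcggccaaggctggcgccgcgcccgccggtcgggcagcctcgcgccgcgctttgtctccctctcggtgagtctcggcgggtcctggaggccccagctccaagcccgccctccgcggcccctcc
Il6st: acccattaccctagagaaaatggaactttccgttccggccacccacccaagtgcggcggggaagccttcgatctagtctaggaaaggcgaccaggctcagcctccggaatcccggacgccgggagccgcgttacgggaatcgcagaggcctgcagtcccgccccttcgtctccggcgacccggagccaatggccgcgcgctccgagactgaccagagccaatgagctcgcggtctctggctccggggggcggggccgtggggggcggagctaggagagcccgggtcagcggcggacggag
The Socs3 window held 1 match, TTCTTAGAA, whose first base lay at -154 from the RefSeq start. That start lies inside the GENCODE span of Socs3, chr11:117966079-117970047 on the minus strand. The Socs3 window is therefore not upstream of the gene as GENCODE places it. The Il6st window held no match to these letters. Of 8 member genes with a window in the table, Cish was the other with a match, and it held 2, TTCCTGGAA and TTCTTGGAA, with first bases at 1 and 12 counted from the start as base 1. Among 32851 promoter windows of the same length searched in the same way, 8.30% held at least 1 match and 0.457% held at least 2. These matches are a description of the sequence and no binding was measured. The Cish window too lies inside the GENCODE span of its gene, chr9:107296026-107302784 on the plus strand. No window was given for Osm and Socs2.

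**Figure D1:**
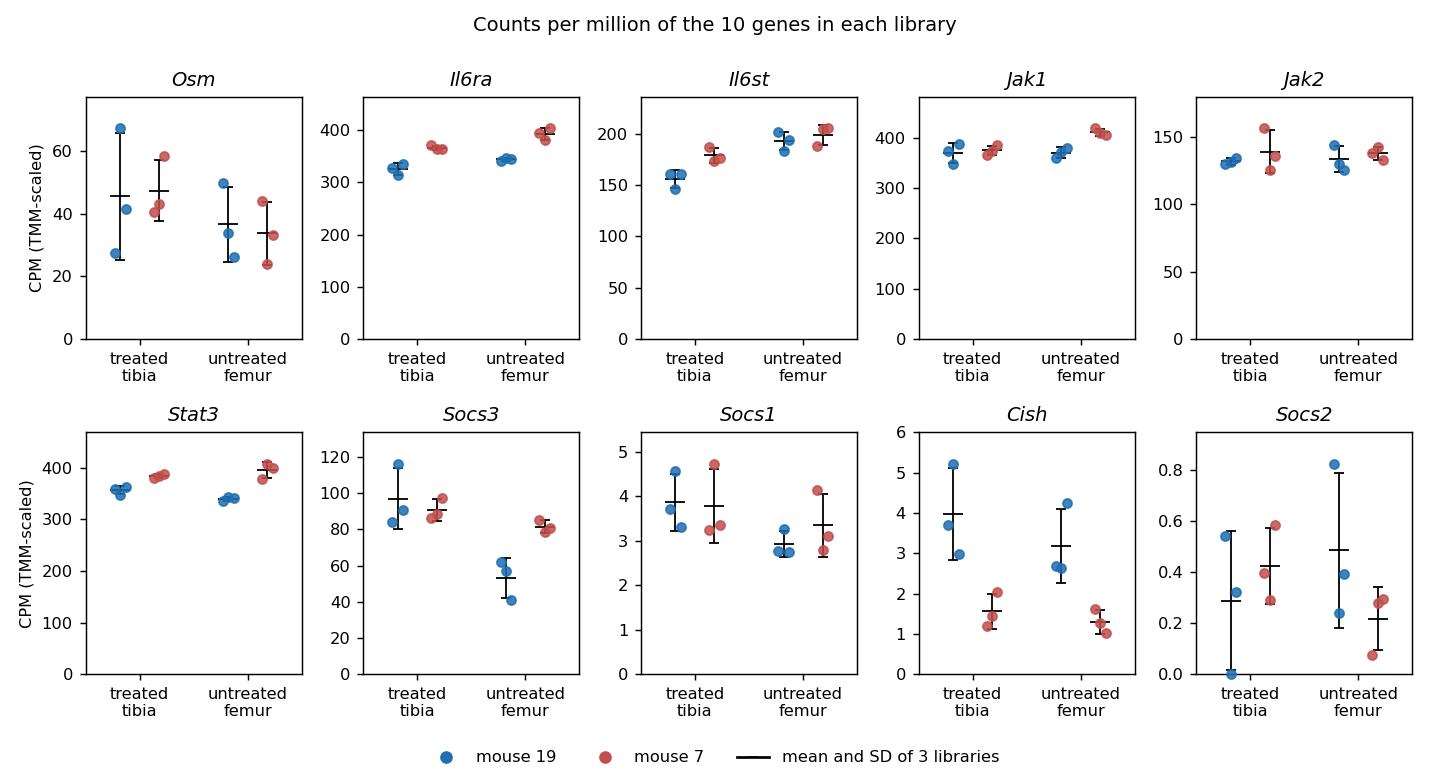
TMM-scaled CPM (vertical axes, each from 0) of the 10 genes in treated tibia and untreated femur, 1 point per library, with the mean and SD of 3 libraries per bone and mouse. Socs3 sits between 83.9 and 116 CPM in the tibia libraries of mouse 19 against 40.8 to 62.0 CPM in its femur libraries, while the bones of mouse 7 lie closer together.

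The ligand gene Osm encodes oncostatin M, which activated macrophages and neutrophils release. It lies on build GRCm38 at chr11:4236420-4241026, on the plus strand, with 3 exons. Osm stood at 27.6, 67.4 and 41.7 CPM in tibia libraries 1 to 3 of mouse 19, against 49.8, 34.0 and 26.1 CPM in its femur libraries. In mouse 7 the tibia libraries stood at 40.6, 43.1 and 58.6 CPM, against 44.2, 23.9 and 33.1 CPM in the femur libraries. The bones overlapped in both mice, although 5 of 6 tibia libraries were above the femur mean of their own mouse. Over both mice the level was 46.5 ± 14.2 CPM in tibia and 35.2 ± 10.1 CPM in femur (SD, n = 6 libraries each), a log2 fold change of 0.41 ± 0.17 (SE) with an edgeR adjusted p of 0.148. Counts summed per mouse and bone gave 0.42 ± 0.08 and an adjusted p of 0.0386, a call that 0.407% of all genes shared in that direction. Summing leaves a single value per mouse and bone, so the spread between libraries does not enter that SE. In the fit over libraries, leaving out tibia library 1 of mouse 19 also gave a call, with an edgeR adjusted p of 0.0248. Leaving out tibia library 2 turned the value within mouse 19 to -0.07, against 0.32 ± 0.22 with all libraries.

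The other ligands of the family were low or level. Of 9 ligand genes in the list, 5 were tested and 0 were called in either direction by edgeR or DESeq2, with 1 higher and 1 lower at an unadjusted p under 0.05. Without tibia library 1 of mouse 19, 1 was called higher (Osm) and 1 lower. Their median log2 fold change was 0.10, against -0.0021 over all genes tested. Per kilobase of exon, Ebi3, which pairs with p28 to form interleukin 27, was the highest at 32.2 CPM per kb in tibia and 36.0 CPM per kb in femur. Interleukin 6 itself had 31 counts over the 6 tibia libraries and 18 over the 6 femur libraries, near the limit that a count of 0 allows. Il11 had 3 counts in tibia and 2 in femur, so neither gene was detectable as a difference at this depth.

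Il6ra, the gene for the interleukin 6 binding chain, lies at chr3:89864059-89913196 on the minus strand with 10 exons. It stood at 327, 314 and 336 CPM in tibia libraries of mouse 19, against 341, 346 and 346 CPM in femur libraries. Mouse 7 had 372, 363 and 364 CPM in tibia and 395, 381 and 404 CPM in femur. All 6 tibia libraries were below all femur libraries of their own mouse, by a small margin. Over both mice the log2 fold change was -0.09 ± 0.03 with an edgeR adjusted p of 0.0537, and means were 346 ± 23.5 CPM in tibia and 369 ± 27.8 CPM in femur (SD, n = 6 libraries each). The value passed the threshold in DESeq2 (adjusted p = 0.0183), with a filter of at least 5 CPM in 3 libraries (edgeR adjusted p = 0.0472) and without tibia library 3 of mouse 19 (edgeR adjusted p = 0.0407). It was further from the threshold on counts summed per mouse and bone (0.603), without a mouse term (0.541) and with a block of mouse and library number (0.115).

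Il6st, the gp130 gene at chr13:112464070-112510086 on the plus strand with 17 exons, was lower in treated tibia. Tibia libraries of mouse 19 stood at 161, 146 and 161 CPM, against 202, 184 and 194 CPM in femur libraries. Those of mouse 7 stood at 187, 174 and 177 CPM, against 188, 204 and 205 CPM in its femur libraries. Each mouse's tibia libraries were all below its femur libraries, with a wide gap in mouse 19 and a narrow one in mouse 7. Over both mice Il6st fell by 0.23 ± 0.04 on the log2 scale (edgeR adjusted p = 9.1e-04), to 168 ± 14.5 CPM in tibia against 196 ± 9.07 CPM in femur (SD, n = 6 libraries each), a fold of 0.853. The log2 fold change was -0.31 ± 0.05 within mouse 19 (adjusted p = 1.9e-04) and -0.15 ± 0.05 within mouse 7 (adjusted p = 0.0502), and the difference between the mice was -0.15 ± 0.07 (adjusted p = 0.297, all edgeR). With counts summed per mouse and bone the adjusted p was 0.150, and without a term for the mouse it was 0.0853, so neither passed.

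Of 8 receptor genes of the gp130 family, 5 were tested and Il6st was the 1 called over both mice, with a median log2 fold change of -0.18 against -0.0021 over all genes. Lifr, the leukemia inhibitory factor receptor that pairs with gp130, was picked out after its values were seen. Its log2 fold change was 0.06 within mouse 19 (edgeR adjusted p = 0.691) and -0.39 within mouse 7 (3.6e-05), and the difference between the mice was 0.45 (0.00115). Over both mice it was -0.18 ± 0.06 and was not called (0.0884). Leaving out tibia library 1, tibia library 3 or femur library 1 of mouse 19 gave a call (0.0382 to 0.0477). With any of these 3 left out, up to 3 of the family were called lower. Osmr, the oncostatin M receptor chain, had 4 counts in the tibia libraries together and 3 in the femur libraries, and Cntfr had 0 in tibia and 4 in femur, so neither bone gave a level for them.

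The kinase genes were expressed at high and nearly level amounts. Jak1, at chr4:101152367-101265282 on the minus strand with 25 exons, stood at 374, 349 and 388 CPM in tibia libraries of mouse 19, against 359.6, 372 and 380.3 CPM in femur libraries. Tibia libraries of mouse 7 stood at 366, 373 and 385 CPM, against 419, 410.1 and 405 CPM in femur libraries. The bones overlapped in mouse 19 and did not overlap in mouse 7, where tibia was lower. Jak1 had a log2 fold change of -0.00 within mouse 19 (edgeR adjusted p = 0.987), -0.13 ± 0.04 within mouse 7 (0.0284) and -0.07 ± 0.03 over both (0.243), and the difference between the mice was 0.13 ± 0.06 (0.232). The call within mouse 7, where 5.36% of all genes were called lower, was lost when library 1 or 2 of its tibia, or library 1 or 2 of its femur, was left out (0.0699 to 0.123).

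Jak2, which also serves the erythropoietin and growth hormone receptors, lies at chr19:29251828-29313080 on the plus strand with 25 exons. It stood at 129.6, 131 and 134 CPM in tibia libraries of mouse 19, against 144, 130.1 and 126 CPM in femur libraries. Mouse 7 had 156, 125 and 136 CPM in tibia and 138, 143 and 133 CPM in femur. The bones overlapped in both mice, and the log2 fold change over both was -0.00 ± 0.05 (edgeR adjusted p = 0.990). With Jak3 and Tyk2 added, 0 of 4 Janus kinase genes were called over both mice by edgeR, 1 was lower at an unadjusted p under 0.05, and DESeq2 called 1 lower.

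Stat3, at chr11:100885098-100939540 on the minus strand with 24 exons, was nearly the same in both bones. It stood at 359.8, 347 and 363 CPM in tibia libraries of mouse 19, against 335, 343 and 341 CPM in femur libraries. Mouse 7 had 380.1, 384 and 389 CPM in tibia and 379, 408 and 399.7 CPM in femur. Tibia was above femur without overlap in mouse 19, and the bones overlapped in mouse 7. Changes on the log2 scale were 0.07 ± 0.04 within mouse 19 (edgeR adjusted p = 0.340), -0.04 within mouse 7 (0.554) and 0.01 ± 0.03 over both (0.845). Transcript level says nothing of phosphorylation, by which STAT3 is activated and which was not measured. The annotated exons of Stat3 share 72 bases with Stat5a on the opposite strand, and without a stated strand setting those reads cannot be told apart.

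Socs3, at chr11:117966079-117970047 on the minus strand with 2 exons, was the member with the largest called change, and it was higher in treated tibia. Tibia libraries 1 to 3 of mouse 19 held 83.9, 116 and 90.7 CPM (1245, 1446 and 1122 counts), against 62.0, 57.1 and 40.8 CPM (603, 716 and 519 counts) in its femur libraries. In mouse 7 the tibia libraries held 86.2, 88.3 and 97.2 CPM (1089, 1212 and 1332 counts), against 85.3, 78.4 and 80.7 CPM (1109, 1118 and 1091 counts) in the femur libraries. All tibia libraries were above all femur libraries of the same mouse, by a wide gap in mouse 19 and a narrow one in mouse 7. The tibia means lay close together, at 96.9 ± 17.0 CPM in mouse 19 and 90.6 ± 5.87 CPM in mouse 7, and the femurs stood apart, at 53.3 ± 11.1 CPM in mouse 19 and 81.5 ± 3.52 CPM in mouse 7 (SD, n = 3 libraries each).

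Over both mice Socs3 rose by 0.50 ± 0.11 on the log2 scale, a fold of 1.41, with an edgeR adjusted p of 0.00471. Within mouse 19 the log2 fold change was 0.87 ± 0.10, a fold of 1.83 (7.4e-07), and within mouse 7 it was 0.15 ± 0.10 (0.380). The difference between the mice, 19 minus 7, was 0.71 ± 0.14 (0.00194), and Socs3 was the 1 member of 9 called in that test, in which 2.89% of all genes were called higher and 1.85% lower. Leaving out any single library kept the value over both mice between 0.39 and 0.55 with a call each time. With counts summed per mouse and bone the adjusted p was 0.119, and without a term for the mouse it was 0.181, so neither passed.

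Socs1, at chr16:10782240-10785536 on the minus strand with 2 exons, was low. It stood at 3.71, 4.58 and 3.31 CPM in tibia libraries of mouse 19, against 2.78, 3.27 and 2.75 CPM in femur libraries. Mouse 7 had 3.24, 4.74 and 3.36 CPM in tibia and 4.16, 2.81 and 3.11 CPM in femur. Tibia was above femur without overlap in mouse 19, by a narrow gap, and the bones overlapped in mouse 7. Over both mice the log2 fold change was 0.28 ± 0.17 (edgeR adjusted p = 0.369), with 5 of 6 tibia libraries above their own femur mean.

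Cish, at chr9:107296026-107302784 on the plus strand with 3 exons, was low and separated by mouse, not by bone. It stood at 3.71, 5.22 and 2.99 CPM in tibia libraries of mouse 19, against 2.67, 2.63 and 4.25 CPM in femur libraries. Mouse 7 had 1.19, 1.46 and 2.04 CPM in tibia and 1.62, 1.26 and 1.04 CPM in femur. The bones overlapped in both mice, whereas all 6 libraries of mouse 19 were above all 6 of mouse 7. For tibia over femur the log2 fold change was 0.29 ± 0.22 (edgeR adjusted p = 0.485). Annotated exons of 2 unnamed gene models share 103 and 479 bases with Cish on the opposite strand, and their reads cannot be told apart without a strand setting.

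Socs2, at chr10:95385362-95417180 on the minus strand with 3 exons, was close to undetected. It had 8, 0 and 4 counts in tibia libraries of mouse 19, against 8, 3 and 5 in femur libraries. Mouse 7 had 5, 4 and 8 counts in tibia and 1, 4 and 4 in femur. The bones overlapped in both mice, and the means of 0.356 CPM in tibia and 0.351 CPM in femur were under the limit that a count of 0 allows, so no fold is given.

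**Figure D2:**
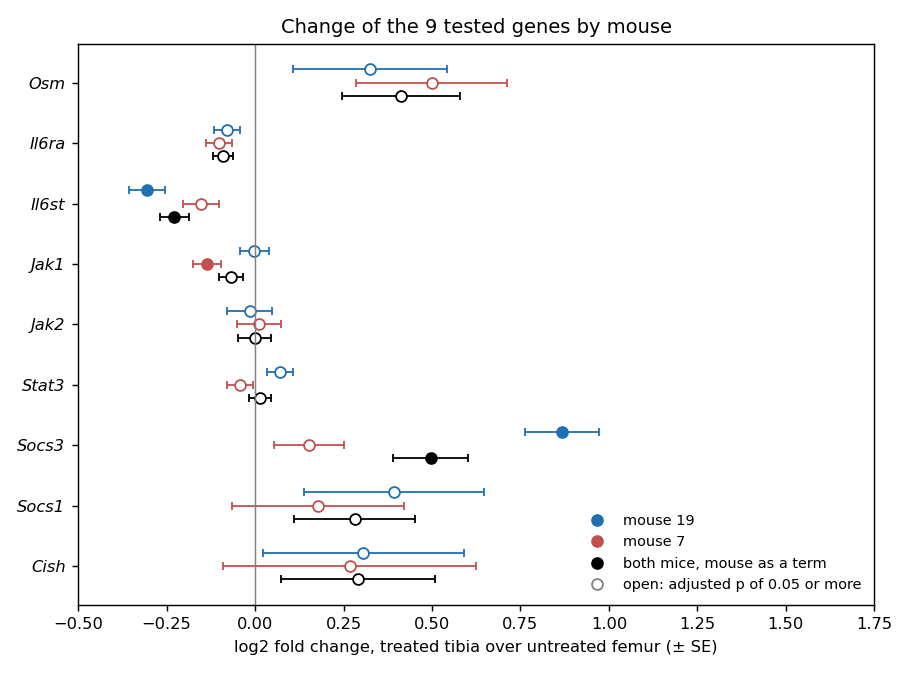
Log2 fold change of treated tibia over untreated femur (horizontal axis, ± SE) for the 9 tested genes within mouse 19, within mouse 7 and over both mice. Filled points passed an adjusted p of 0.05. Socs3 lies furthest right in mouse 19 at 0.87, and Il6st lies furthest left, at -0.31 in mouse 19.

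In mouse 19 Socs3, Socs1 and Stat3 stood above femur without overlap, 3 of 9 tested members, where 10.8% of all genes did so, and Il6ra and Il6st stood below, 2 of 9, where 10.3% did so. In mouse 7 Socs3 alone of the 9 stood above, where 12.2% of all genes did so, and Il6ra, Il6st and Jak1 stood below, 3 of 9, where 14.4% did so. When the 6 tibia and 6 femur libraries of both mice were pooled, 0 of 9 members separated, against 1.69% of all genes (0.966% with tibia above and 0.728% with tibia below). By the edgeR test, the members called were 2 of 9 in mouse 19, where 5.17% of all genes were called (2.96% higher and 2.21% lower), and 1 of 9 in mouse 7, where 9.73% were. The median log2 fold change of the 9 members over both mice was 0.01, against -0.0021 over all genes.

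The mice also differed in level whatever the bone, which is given as a description. Stat3 was lower in mouse 19, at 335 to 363 CPM against 379 to 408 CPM in mouse 7. Il6ra was lower too, at 314 to 346 CPM in mouse 19 against 363 to 404 CPM in mouse 7. Cish was higher, at 2.63 to 5.22 CPM in mouse 19 against 1.04 to 2.04 CPM in mouse 7. In these 3 genes the 12 libraries separated by mouse, as they did for 11.3% of all genes (mouse 19 above in 5.37% and below in 5.97%). As a sum, neutrophil genes were higher in mouse 19, as Cish was. Of 9 listed genes 8 were in the table, at a summed 23652 to 28807 CPM in mouse 19 against 15886 to 17512 CPM in mouse 7. The 8 macrophage genes summed lower in mouse 19, as Stat3 and Il6ra were, at 15671 to 16607 CPM against 16819 to 19388 CPM in mouse 7. Such sums lean on their most abundant genes, such as S100a9 and Lyz2. Eosinophil and mast cell genes, 6 of 6 in the table, summed to 224 to 364 CPM in mouse 19 against 103 to 166 CPM in mouse 7. The part of these cell types in the levels of Stat3, Il6ra and Cish was not tested.

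**Figure D3:**
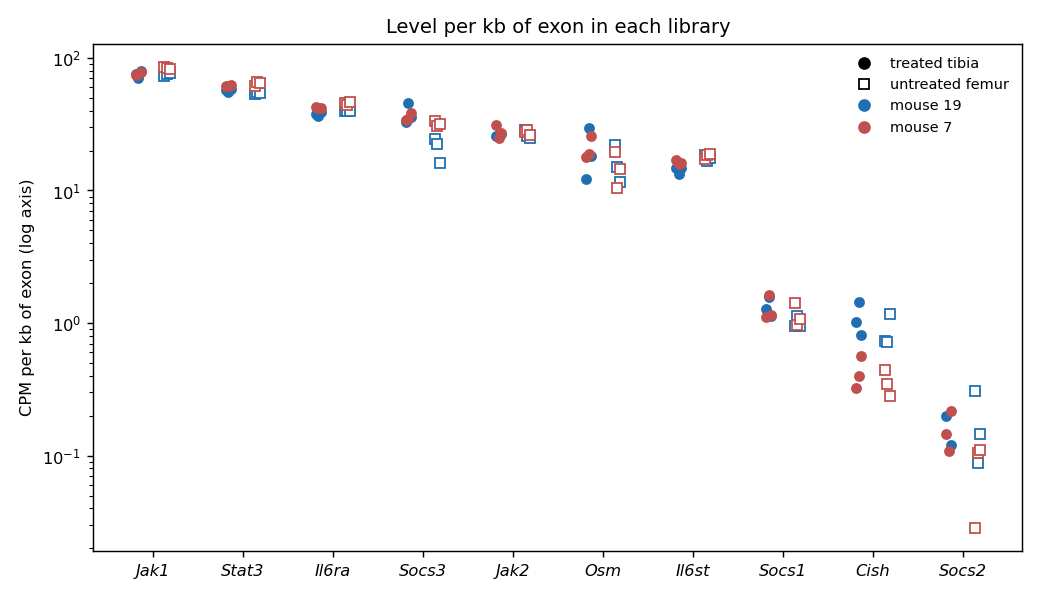
TMM-scaled CPM per kb of exon (vertical log axis) of the 10 genes in each library, treated tibia (filled circles) left of untreated femur (open squares), colored by mouse. Kinase, STAT and receptor genes lie above 10 CPM per kb, and Socs1, Cish and Socs2 lie under 2 CPM per kb. The 1 tibia library with no Socs2 count has no place on a log axis and is not drawn.

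Levels of different genes can be compared only per length. Per kilobase of exon in treated tibia, Jak1 was highest at 75.9 CPM per kb, then Stat3 at 59.5, Il6ra at 40.0, Socs3 at 36.7, Jak2 at 26.9, Osm at 20.5 and Il6st at 15.3 CPM per kb. Socs1 at 1.31, Cish at 0.759 and Socs2 at 0.132 CPM per kb followed far below. Neighbors in this order whose libraries overlapped were Il6ra and Socs3, Jak2 and Osm, Osm and Il6st, and Socs1 and Cish. In untreated femur Socs3 stood lower in the order, at 26.4 CPM per kb, overlapping with Jak2 at 26.9 and Il6st at 17.9 CPM per kb. Osm at 15.5 CPM per kb then overlapped with Il6st. Far below Osm and without overlap came Socs1 at 1.08 CPM per kb, which overlapped with Cish at 0.615 CPM per kb. Cish in turn overlapped with Socs2 at 0.130 CPM per kb. Per kilobase, the level of Socs3 was the highest of the 4 feedback genes listed among the 10, in each bone. Of the related genes Socs4 to Socs7, the highest was Socs6 at 7.16 CPM per kb in tibia and 7.37 CPM per kb in femur. In the same libraries the Osm receptor chain gene Osmr was near 0.

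The wider pathway held 110 genes beyond the 10 members, of which 97 were tested. Its lists were chosen with earlier results of these data known, so their counts beside those of all genes are a description only. Calls in this paragraph are over both mice, where 3.51% of all genes were called higher and 3.69% lower. In the SOCS family, 1 of 7 tested genes was called, Socs3, or 2 when femur library 2 of mouse 7 was left out, and the median log2 fold change was 0.15. SOCS box proteins act as part of a ubiquitin ligase, and 1 of its 4 listed subunits was called higher, Tceb2, the elongin B gene, at 91.5 ± 4.73 CPM in tibia and 81.9 ± 5.16 CPM in femur (SD, n = 6 libraries each). Its log2 fold change was 0.16 ± 0.04 (edgeR adjusted p = 0.0119, and 0.356 on counts summed per mouse and bone). Of 12 tested phosphatase, PIAS and other brake genes, 1 was called, Ndufa13, a subunit of respiratory complex I that also binds STAT3. It was higher by 0.15 ± 0.04 (edgeR adjusted p = 0.0324, and 0.402 on summed counts). The call depended on 8 single libraries, being lost when library 1 or 2 of the tibia or 1 or 3 of the femur of mouse 19, or library 2 or 3 of the tibia or 1 or 3 of the femur of mouse 7, was left out (0.0543 to 0.0770).

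Other receptors that signal through STAT3 or STAT5 moved in both directions over both mice. Of 18 tested genes 3 were higher and 2 lower, where 3.51% of all genes were called higher and 3.69% lower. Their median log2 fold change was 0.00. By mouse, 6 were called within mouse 19, all higher, where 2.96% of all genes were called higher. Within mouse 7, 3 were called, all lower, where 5.36% of all genes were called lower. The difference between the mice was called higher for 5, where 2.89% of all genes were. Il4ra, the interleukin 4 receptor alpha chain and itself a STAT3 target, averaged 219 ± 10.2 CPM in tibia and 177 ± 28.1 CPM in femur (SD, n = 6 libraries each), a log2 fold change of 0.31 ± 0.06 (edgeR adjusted p = 0.00110). Like Socs3 it differed between the mice, with 0.53 within mouse 19 (4.6e-09), 0.10 within mouse 7 (0.194) and a difference of 0.43 (1.3e-04). Il21r, the interleukin 21 receptor, was higher by 0.35 ± 0.08 (0.00637), and Csf2rb2, a beta chain of the interleukin 3 receptor, was higher by 0.20 ± 0.04 (0.00409). All 6 tibia libraries were above the femur mean of their own mouse for these 3 genes. On counts summed per mouse and bone, the edgeR adjusted p was 0.166 for Il4ra, 0.232 for Il21r and 0.278 for Csf2rb2.

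Il5ra, the interleukin 5 receptor of eosinophils, was lower by a log2 fold change of -0.43 ± 0.12 (edgeR adjusted p = 0.0278, and 0.302 on summed counts). The call was lost when library 3 of the tibia or 1 or 3 of the femur of mouse 19, or library 2 or 3 of the tibia or 1 of the femur of mouse 7, was left out (0.0536 to 0.0770). Eosinophil and mast cell genes summed to 224 to 292 CPM in tibia and 297 to 364 CPM in femur of mouse 19, and to 113 to 166 CPM in tibia and 103 to 123 CPM in femur of mouse 7. Of these 6 genes Il5ra itself was the 1 called. Csf3r, the receptor for granulocyte colony stimulating factor, falls outside the naming rule and completes the count of 2. Its log2 fold change was -0.13 ± 0.04 (0.0287, and 0.5004 on summed counts), and the call was lost when library 3 of the femur of mouse 19 or any 1 of the 6 libraries of mouse 7 was left out (0.0508 to 0.0825).

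Genes known as STAT3 targets were called higher in 7 of 30 cases over both mice, where 3.51% of all genes were called higher. This list too was chosen with earlier results of these data known, so the count describes the listed genes and is no test of STAT3 targets. Their median log2 fold change was 0.04, against -0.0021 over all genes. Socs3 is among the 7. Saa3, an acute-phase protein made by macrophages, had the largest change, at 56.5 ± 16.03 CPM in tibia and 10.8 ± 2.53 CPM in femur (SD, n = 6 libraries each), a log2 fold change of 2.33 ± 0.15 (edgeR adjusted p = 5.4e-11). It was the 1 target of the 30 that passed with counts summed per mouse and bone (2.7e-04). Vegfa, the vascular endothelial growth factor gene, averaged 19.6 ± 5.16 CPM in tibia and 13.9 ± 3.04 CPM in femur, a log2 fold change of 0.49 ± 0.08 (2.8e-04, and 0.0690 on summed counts). Timp1, an inhibitor of matrix metalloproteinases, was near the detection limit, with 60 counts in the tibia libraries together and 15 in the femur libraries. The femur mean of 0.197 CPM was under the limit that a count of 0 allows, so no fold is given. Timp1 was called higher (edgeR adjusted p = 0.0305, and 0.219 on summed counts), and its call was lost when library 2 of the femur of mouse 19, any 1 library of the tibia of mouse 7, or library 1 or 3 of the femur of mouse 7 was left out (0.0568 to 0.0820). Il4ra is the fifth. The 2 that the naming rule leaves out were Lrg1 at 0.25 ± 0.04 (7.1e-04, and 0.153 on summed counts) and Lcn2 at 0.14 ± 0.03 (0.0129, and 0.413 on summed counts), both secreted acute-phase proteins that neutrophils also store.

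Within mouse 19, 9 of the 30 STAT3 target genes were called higher, where 2.96% of all genes were, and the median log2 fold change was 0.12. Within mouse 7, 3 were called higher and 2 lower, where 4.37% of all genes were called higher and 5.36% lower, and the median was -0.05. The count of 2 lower was 1 when library 3 of the tibia or 1 or 2 of the femur of mouse 7, or library 1 of the femur of mouse 19, was left out. The difference between the mice was called higher for 6 of the 30, where 2.89% of all genes were. The counts by mouse come from the same list and are likewise a description. Medians over all genes were 9.2e-04 in mouse 19 and -0.00720 in mouse 7. Leaving out single libraries gave 6 to 10 genes higher over both mice, and 1 lower without library 1 of the tibia or library 3 of the femur of mouse 7. Granulocyte precursors are a cell type other than the one labelled. Over both mice their 5 listed genes Elane, Mpo, Prtn3, Ctsg and Ms4a3 were all called higher in tibia, and they summed to 1364 to 1697 CPM in tibia and 1096 to 1386 CPM in femur of mouse 19, and to 963 to 1206 CPM in tibia and 649.7 to 677 CPM in femur of mouse 7. The sums of the bones overlapped in mouse 19 and did not overlap in mouse 7. Of 8 tested neutrophil genes 2 were higher and 2 lower, at sums of 26625 to 28807 CPM in tibia and 23652 to 27210 CPM in femur of mouse 19, and 16166 to 17512 CPM in tibia and 15886 to 17472 CPM in femur of mouse 7. Their part in the changes of Socs3 and of the target genes was not tested.

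STAT5 target genes gave 2 higher and 1 lower of 14 tested over both mice, where 3.51% of all genes were called higher and 3.69% lower. Their median log2 fold change was 0.09. The count was 1 to 4 higher without single libraries, 4 of them without tibia library 1 of mouse 19, and 2 were lower without femur library 3 of mouse 7. Ccnd2, which encodes cyclin D2, fell by 0.49 ± 0.09 on the log2 scale, to 16.9 ± 3.79 CPM in tibia against 23.8 ± 5.51 CPM in femur (SD, n = 6 libraries each; edgeR adjusted p = 7.7e-04). It was lower in 6 of 6 tibia libraries and passed on counts summed per mouse and bone (0.0497). Cdkn1a, the cell cycle inhibitor p21, was higher by 0.21 ± 0.06 (edgeR adjusted p = 0.0359, and 0.230 on summed counts). It was no longer called when library 2 of the tibia or 2 or 3 of the femur of mouse 19, or library 2 or 3 of the tibia or 2 of the femur of mouse 7, was left out (0.0761 to 0.0994). Socs3 was the other called gene.

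**Figure D4:**
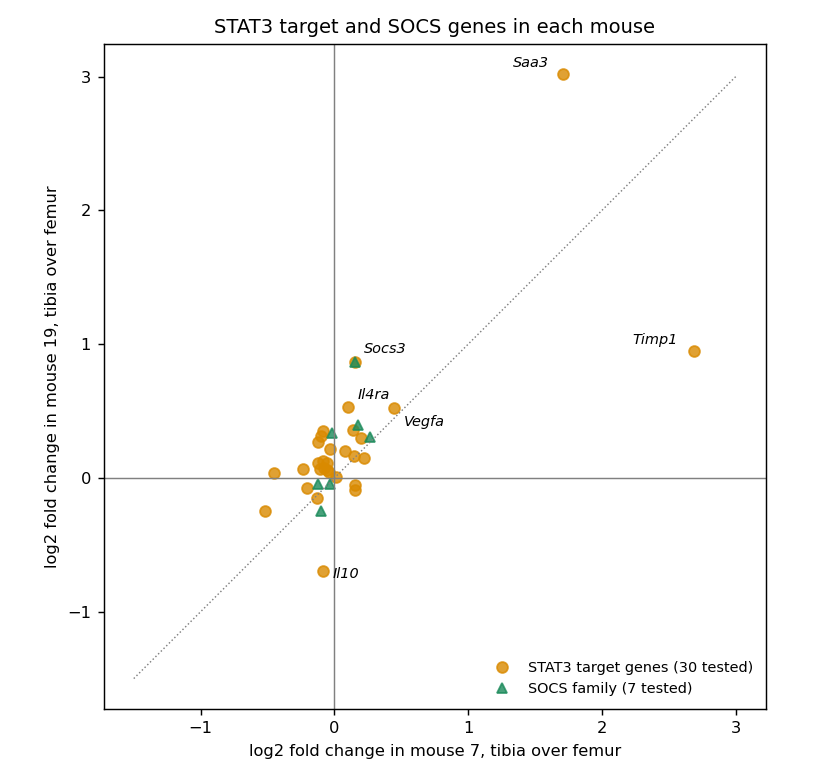
Log2 fold change of treated tibia over untreated femur within mouse 19 (vertical axis) against that within mouse 7 (horizontal axis) for 30 STAT3 target genes and 7 SOCS genes, with a dotted line of equal change. Socs3 lies above the line at 0.87 in mouse 19 and 0.15 in mouse 7. Il4ra lies above it too, at 0.53 in mouse 19 and 0.10 in mouse 7. The place of Timp1 rests on 60 counts in tibia and 15 in femur.

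The genes whose pattern over the 12 libraries was closest to that of Socs3 included P2ry12, Trem1, Sgk1 and Spon1. Likeness was the root mean square difference of mean-centered log2(CPM + 1) over the 12 libraries, and 11196 genes with a mean of at least 1 CPM were compared. It was 0.141 for P2ry12, an ADP receptor, 0.162 for Trem1, a receptor that amplifies inflammation in myeloid cells, and 0.170 for Sgk1, a kinase, and for Spon1, a matrix protein. Socs3 itself had an SD of 0.393 on this scale. P2ry12 averaged 26.8 CPM in tibia and 19.2 CPM in femur and Trem1 50.8 CPM in tibia and 37.1 CPM in femur. The genes closest to Cish were AA467197 (0.182), Tmem40 (0.185), the tetraspanin gene Cd63 (0.203) and the neutrophil gene S100a9 (0.214), with a row whose name a spreadsheet had turned into a date between the last 2. The SD of Cish was 0.531.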

How the data were processed

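Macrophages from 2 mice, 3 libraries per bone and mouse, were sequenced. The authors deposited raw whole-number counts per gene and library. RNA was isolated with a micro column kit including DNase, and libraries were made with a Vazyme mRNA kit, per the labels' protocols. The tools were bcl2fastq, HISAT2, featureCounts of Subread and DESeq2 on build mm10, per the submitters' processing notes. Their versions, strand setting and annotation were not given in these sources. Among counts from 1 to 10, 69.8% were even and counts of 2 (9755) outnumbered counts of 1 (2995), so 1 fragment appears to give 2 counts and a count of 0 was taken to allow 6 counts (3 fragments).

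Counts were filtered with filterByExpr (minimum count 10), scaled by TMM and tested in edgeR 4.0.16 (R 4.3.3, limma 3.58.1) with glmQLFit and glmQLFTest, with mouse as a term, within each mouse, and for the difference between mice. The mouse pairs the bones, since both come from the same animal per the labels. DESeq2 1.42.0 was an alternative. The script was tested on simulated data. Exon lengths and positions came from GENCODE M21 (GRCm38), promoter windows from RefSeq. Depth was 9773455 to 14869150 counts. The biological coefficient of variation was 6.26%. All 10 members are named. Per list, up to 4 called genes with the largest change are named, and the 5 genes most like Socs3 and Cish, and some items that these rules name are not reported here. Of 190 list genes, 188 matched. The members and lists were chosen with earlier results of these data known. Alternatives are given in the closing section.

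Of the macrophage genes tested, 1 of 8 was higher and 1 lower, as described in the Results. Marker lists not described there gave, of the genes tested, 3 of 6 lower for dendritic cells and 1 of 7 lower for B and plasma cells. They also gave 1 of 2 lower for endothelial cells and 1 of 2 higher for megakaryocytes. Calls were 0 of 4 for mesenchymal stromal cells, 0 of 3 for T and NK cells and 0 of 4 for erythroid cells (Hba-a1 and Hbb-b1 at 0) in edgeR and DESeq2, with 0, 0 and 1 at an unadjusted p under 0.05.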

Additional observations from a re-analysis of the deposited data

Results flagged for a closer look

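The change of Socs3 in treated tibia over untreated femur differed between the mice. The log2 fold change was 0.87 ± 0.10 within mouse 19 and 0.15 ± 0.10 within mouse 7 (SE, 3 libraries per bone each), and the difference between them, tested as an interaction in edgeR, was 0.71 ± 0.14 (adjusted p = 0.00194). The tibia libraries of mouse 19 stood at 83.9 to 116 CPM against 40.8 to 62.0 CPM in its femur libraries. Those of mouse 7 stood at 86.2 to 97.2 CPM in tibia against 78.4 to 85.3 CPM in femur. The difference stayed called whichever single library was left out, at 0.55 to 0.82. With 1 animal on each side, the mouse and whatever differed in its treatment or preparation cannot be told apart.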

How the results depend on the processing

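The direction of both members called over both mice was the same under every alternative run, and leaving out single libraries gave 2 to 3 called members. Without a mouse term (no replicate block) 0 were called (edgeR; 2 at an unadjusted p under 0.05, and 74 genes in all against 850), with Socs3 at 0.47 (adjusted p = 0.181) and Il6st at -0.23 (0.0853). Counts summed per mouse and bone called 1, Osm at 0.42 (65 genes in all), with Socs3 at 0.51 (0.119) and Il6st at -0.23 (0.150). A block of mouse and library number called the same 2 members, Socs3 at 0.50 (0.0188) and Il6st at -0.23 (0.0056), and 495 genes. Library numbers are not stated to pair the samples. Deviations of same-numbered libraries correlated at -0.0781 to 0.0246 over 6 pairs, and 1 of 6 tibia libraries was closest to its own number. No shared deviation was seen, but with 3 libraries per bone and mouse this cannot exclude pairing.

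Within mouse 7, the count of 1 became 3 with no filter and 2 in DESeq2, and 0 to 2 without single libraries (0 without tibia or femur library 2 of that mouse, with 4 and 3 at an unadjusted p under 0.05). Il6st was called there with no filter at -0.15 (0.0308), in DESeq2 at -0.15 (0.0394) and when library 1 of either bone of mouse 7 or tibia library 2 of mouse 19 was left out. Jak1 in mouse 7 ran from -0.14 to -0.12 where its call was lost. Il6ra over both mice was called at -0.09 with the 5 CPM filter and in DESeq2. With no filter, Osm was called over both mice (0.41), in mouse 19 (0.33) and in mouse 7 (0.50), in a fit whose prior degrees of freedom were infinite.

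Several uncalled values changed sign. Jak2 over both mice was 0.0025 with upper quartile scaling, 0.0010 with no filter, 0.0006 with the 5 CPM filter and 0.0026 with halved counts, and Jak1 in mouse 19 was 0.0007 with no filter. Without single libraries, the sign also changed for Jak2 over both mice (-0.0438 to 0.0295), in mouse 19 (-0.0562 to 0.0406), in mouse 7 (-0.0792 to 0.0824) and in the difference (-0.10 to 0.0645), for Jak1 in mouse 19 (-0.0376 to 0.0375), for Osm in mouse 19 (-0.0707 to 0.60) and in the difference (-0.58 to 0.10), for Cish (-0.21 to 0.31) and Il6ra (-0.0105 to 0.0455) in the difference, and for Socs1 in mouse 7 (-0.0193 to 0.36). The cause of these changes was not tested. Depth limits Socs2, Il6, Il11 and Osmr, for which no difference was detectable.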

Other observations

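Il10ra, the alpha chain of the receptor for interleukin 10, a cytokine that acts through STAT3 and is little restrained by SOCS3, moved in opposite directions in the 2 mice. It was chosen after its values were seen. The log2 fold change of Il10ra in treated tibia over untreated femur was 0.14 within mouse 19 (edgeR adjusted p = 0.0379) and -0.23 within mouse 7 (1.7e-04), and the difference between the mice was 0.37 (6.7e-05). The call within mouse 19 was lost without tibia library 1 or 3 or any femur library of mouse 19, or without femur library 1 of mouse 7 (0.0540 to 0.153). The other chain, Il10rb, had 0.21 within mouse 19 (0.0286), a call lost when any 1 library of that mouse was left out, and -0.06 within mouse 7 (0.622), and its difference of 0.27 was not called (0.0585), except when library 1 of the tibia or 3 of the femur of mouse 7 was left out (0.0237 to 0.0417). Hif1a, the hypoxia factor and a STAT3 target, had 0.35 within mouse 19 (4.5e-06), -0.08 within mouse 7 (0.274) and a difference of 0.43 (5.7e-05). It was chosen in the same way.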
